A study of Caenorhabditis elegans with 8 samples.

Results

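The 48 genes described here encode the proteins by which Caenorhabditis elegans neurons make, package, release, recapture and sense neurotransmitters. They were chosen by name for their known roles at the synapse, with earlier results of these data known. All 48 were found among the 46748 gene identifiers of the count files. They comprise 24 genes that neurons share whatever their transmitter, 8 genes of the acetylcholine system, 5 of the GABA system, 3 of the glutamate system and 8 of the monoamines.

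Neurotransmitters are loaded into synaptic vesicles by transporters specific to each transmitter, and the vesicles dock at an active zone and fuse with the plasma membrane when calcium enters. Fusion is driven by SNARE proteins on the vesicle and the plasma membrane, which are held in check and primed by dedicated regulators. In the worm embryo, neurons are born before elongation, and genes for transmission come on as they differentiate in the later stages.

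Poly(A)-selected RNA was sequenced from whole late embryos of 2 strains, with 4 biological replicates each. Animals of the group called WT are lin-52(bn139[lin-52::GFP::3xFLAG]). Those called 3A carry the allele bn151, in which LIN-52 has the same GFP::3xFLAG tag and the substitutions L42A, C44A and E46A, so the tag is common to the groups and the alanine substitutions are what differs. LIN-52 is a subunit of MuvB, and the series asked which genes are misexpressed once LIN-35, the worm pocket protein, can no longer associate with MuvB. Each group rests on 1 allele. Embryos were released from adults by bleaching after 72 h of liquid culture (20 °C) on HB101 bacteria and held for up to 3.5 h, so a library pools many embryos of more than 1 age. All cells of the body were sampled in bulk, and in such samples fewer neurons and less RNA per neuron cannot be told apart.

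Depth ran from 14667743 gene-assigned read pairs in WT replicate 4 to 68040557 in WT replicate 3. Ribosomal RNA genes took 0.720% to 3.24% of gene counts in WT and 1.75% to 40.7% in 3A. On the first principal component of all genes, which held 43.4% of the variance, WT replicate 1 scored -83.9, while the other WT libraries scored 18.7 to 54.6 and the 3A libraries -43.7 to 31.9. The labelled stage was matched by some markers of differentiated tissue. The epidermal collagen gene sqt-3 stood at 1676 to 17432 CPM (read counts normalised to library size, with TMM scaling). The neuronal gene unc-119 stood at 11.5 to 22.9 CPM over the 8 libraries. Other markers were scarce, with the neuronal gene rgef-1 at 0.083 to 0.726 CPM and the epidermal gene dpy-8 at 0.122 to 0.641 CPM. Of the listed markers, 13 of 15 panneuronal and 22 of 23 epidermal genes had enough reads to be tested, but rgef-1 and the epidermal gene lin-29 did not. Markers of the early embryo were detected too, with mex-5 at 1.38 to 6.87 CPM and mei-1, the highest of that list, at 15.3 to 34.5 CPM. TMM factors ran from 0.630 in 3A replicate 4 to 1.925 in WT replicate 3, so levels compared between libraries depend on that scaling. Levels below are in CPM, listed in the order of replicates 1 to 4, and a log2 fold change is 3A minus WT, given ± its standard error (SE).

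None of the synaptic and transmitter genes passed the test. Of the 48 genes, 42 had enough reads to be tested, and 0 of 42 reached an adjusted p of 0.05 by edgeR's quasi-likelihood test with adjustment over all 12664 genes tested, where 0.371% of all genes passed and 0.0158% passed with a lower level in 3A. Adjusted p-values of the 42 ran from 0.412 to 0.995. Before adjustment, 4 of 42 (9.52%) had a p-value under 0.05, beside 9.75% of all genes. The 4 were rab-3, unc-57, syd-1 and unc-47, all with lower values in 3A, a direction in which 4.03% of all genes had such a p-value. On its 3A libraries alone, unc-47 would not have had enough reads to be tested. The count of 4 depended on single libraries, being 1 without 3A replicate 3, 2 without WT replicate 3, 9 without WT replicate 4 and 10 without 3A replicate 2. DESeq2 gave an adjusted p for 41 of the 42 (none for unc-17) and passed 0 of these, with 4 under 0.05 before adjustment.

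The values nevertheless leaned one way. The genes and lists were chosen with earlier results of these data known, so the lean is a description and was not tested. A negative log2 fold change was found for 37 of the 42 genes (88.1%), beside 57.2% of all genes, and the median was -0.48, beside -0.083 for all genes. In lists of other tissues the negative share was 91.3% for muscle, 72.7% for pharynx, 66.7% for intestine and 63.6% for epidermis. Scaled by library size alone, a setting that shifted the median of all genes by a further -0.32, all 42 were negative with a median of -0.75, against -0.40 for all genes. Much of the lean came with WT replicate 1. Without that library 31 of 43 genes (72.1%) were negative with a median of -0.18, beside 51.3% and -0.020 for all genes. Leaving out any other single library kept the median between -0.60 and -0.39. Without WT replicate 1 the negative shares of muscle, pharynx, intestine and epidermis were 26.1%, 36.4%, 44.4% and 22.7%.

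**Figure D1:**
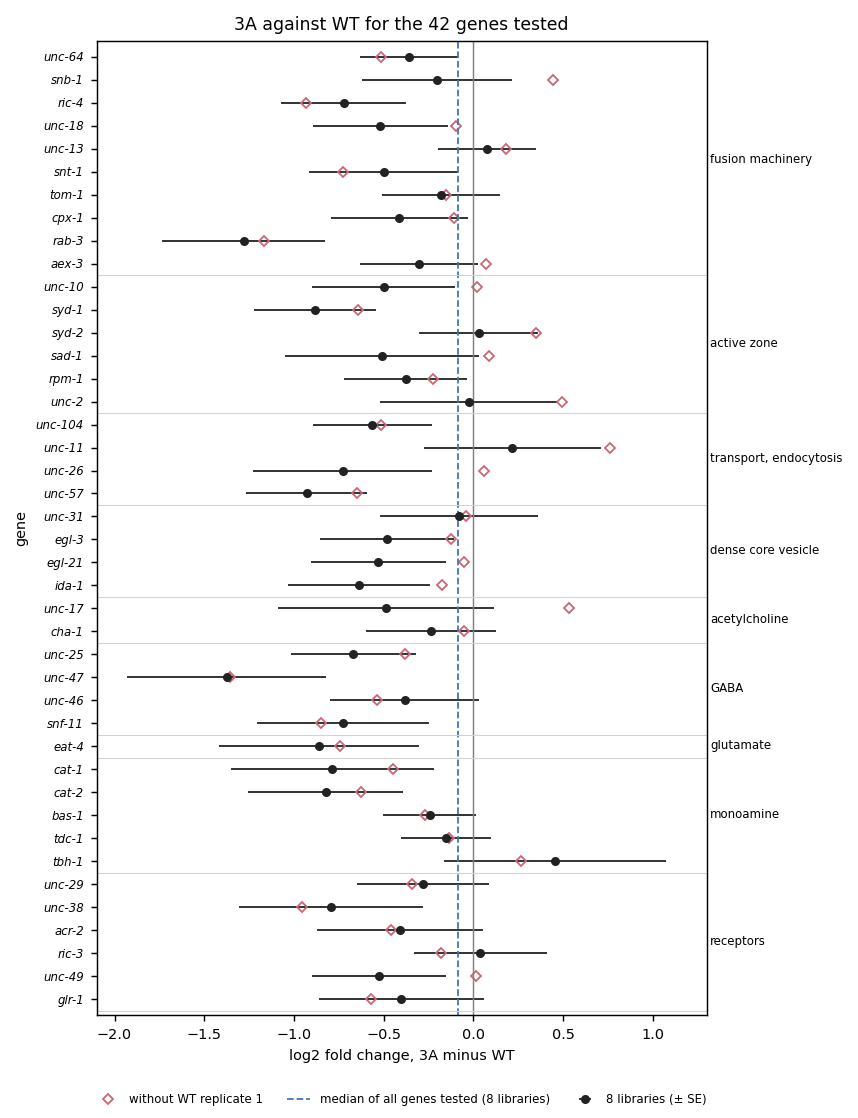
Log2 fold change of each of the 42 genes tested (horizontal axis, 3A minus WT), by role (rows); black points with bars are the fit to 8 libraries ± SE, and open red diamonds the fit without WT replicate 1. Most points lie to the left of the dashed median of all genes, and several diamonds of the active zone, transport and acetylcholine rows, among them unc-17, cross to the right of 0.

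The fusion machinery held the most abundant genes. Per kilobase of exon, the vesicle SNARE gene snb-1 (synaptobrevin) was the highest of all 48, at 134 ± 96.1 CPM per kb in WT (SD, n = 4) and 117 ± 28.1 in 3A. The complexin gene cpx-1, whose product clamps and assists SNARE complexes, followed in WT at 56.99 ± 26.2, then ric-3 at 29.99 ± 11.7, ric-4 at 18.8 ± 7.22 and unc-64 at 10.2 ± 2.63 CPM per kb. Within each library snb-1 lay above cpx-1, in both groups. The order of cpx-1 and ric-3 was not settled, since ric-3 was the higher in WT replicate 3 and 3A replicate 2. The lowest means in WT were those of mod-5, dat-1 and nmr-1, at 0.0307, 0.0461 and 0.0476 CPM per kb.

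Of the 10 fusion genes, 9 had a negative log2 fold change and 1, rab-3, had an unadjusted p-value under 0.05. RAB-3 is the small GTPase that marks synaptic vesicles and helps to bring them to the release site (rab-3, WBGene00004267, WBcel235 chromosome II, 5721767 to 5727853, minus strand). Its level was 3.09, 2.47, 3.62 and 0.747 CPM in WT and 0.793, 1.51, 1.03 and 0.733 CPM in 3A. The 3A values clustered near 1 CPM, while 3 WT libraries lay above all of them and WT replicate 4, the shallowest library, lay among them. Its log2 fold change was -1.28 ± 0.45 (adjusted p = 0.412, edgeR), with a 95% interval of -2.27 to -0.29. Of its exon sequence, 80 bp (5.48%) overlap C18A3.18 on the same strand, where reads may be split. The value for WT replicate 4 rests on 9 read pairs, and without that library the log2 fold change was -1.54.

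ric-4 encodes the SNAP25 homologue, a SNARE of the plasma membrane. It stood at 11.5, 31.2, 29.1 and 21.1 CPM in WT and 13.2, 21.1, 11.7 and 10.2 CPM in 3A. WT replicate 1 sat among the 3A libraries, and the other WT libraries were higher, with 3A replicate 2 level with the lowest of them. In 3A against WT the log2 fold change was -0.72 ± 0.35 (adjusted p = 0.543, edgeR), and without WT replicate 1 it was -0.93 (SE 0.27; unadjusted p = 0.00410, adjusted p = 0.0921), the smallest adjusted p-value of any listed gene in any setting. The partner SNARE gene unc-64 (syntaxin) stood at 16.3, 31.4, 27.7 and 29.1 CPM in WT and 18.6, 20.2, 25.9 and 16.8 CPM in 3A, with WT replicate 1 lowest of all 8 libraries. Its log2 fold change was -0.36 ± 0.27 (adjusted p = 0.703, edgeR), or -0.52 without WT replicate 1 (unadjusted p = 0.0351, adjusted p = 0.192).

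unc-18 encodes the Munc18 protein that chaperones syntaxin. Its level was 16.9, 7.02, 9.97 and 4.32 CPM in WT and 6.81, 7.29, 5.05 and 7.69 CPM in 3A, highest in WT replicate 1 and lowest in WT replicate 4, so the WT values spanned all of the 3A values. The log2 fold change of -0.52 ± 0.38 (adjusted p = 0.687, edgeR) became -0.094 without WT replicate 1. The calcium sensor gene snt-1 (synaptotagmin) had 4.02, 12.9, 10.1 and 9.13 CPM in WT and 4.69, 11.6, 4.85 and 4.21 CPM in 3A, again with WT replicate 1 the lowest WT library and 3A replicate 2 the highest 3A library. snb-1 showed the opposite WT pattern, at 224, 74.6, 60.6 and 73.7 CPM in WT and 123, 90.2, 67.9 and 94.9 CPM in 3A. Its log2 fold change was -0.20 with all libraries and 0.45 without WT replicate 1. Among the fusion genes unc-13, whose product primes vesicles, was closest to 0, with a log2 fold change of 0.076 and a 95% interval of -0.52 to 0.68. Log2 fold changes were -0.41 for cpx-1, -0.30 for aex-3, the exchange factor that activates RAB-3, and -0.18 for tom-1, the tomosyn gene whose product restrains SNARE assembly. Without WT replicate 1 these were -0.11, 0.073 and -0.15.

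**Figure D2:**
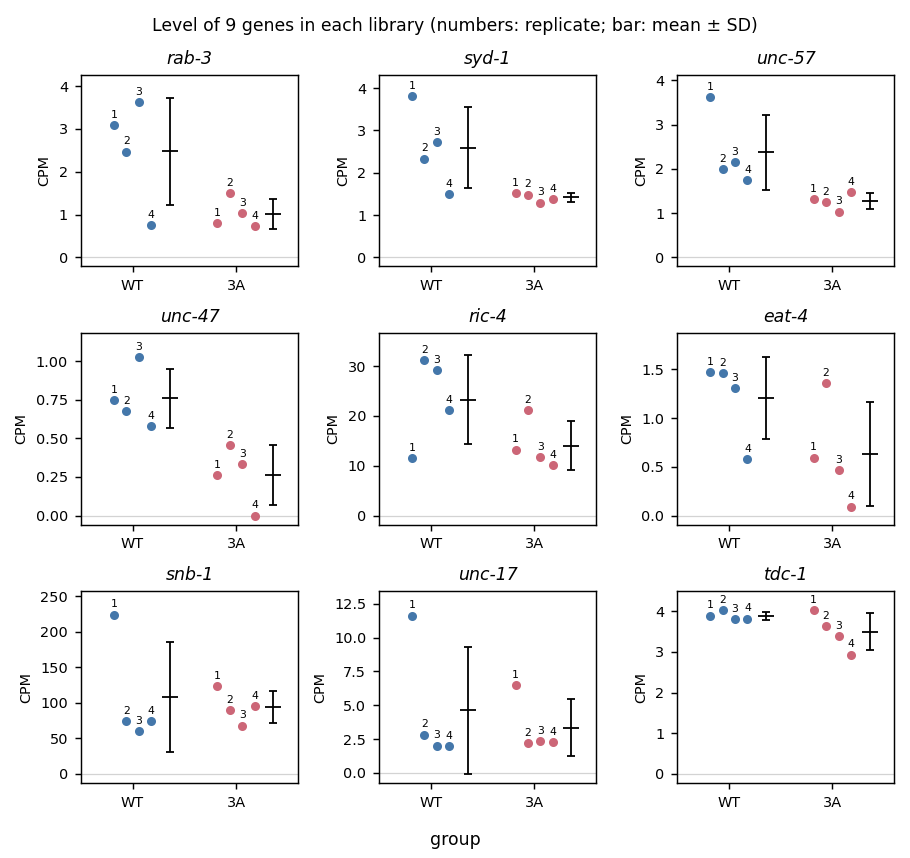
Level of 9 genes in CPM (vertical axes, linear, each on its own scale) in every WT (blue) and 3A (red) library; small numbers are replicate numbers and black bars the mean ± SD of 4. For unc-57 and unc-47 all WT points lie above all 3A points, snb-1 and unc-17 have a single high WT library, replicate 1, and tdc-1 stays between 2.93 and 4.03 CPM throughout.

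Active zone genes build the platform at which vesicles dock. syd-1 acts early in placing that platform (WBGene00006363, WBcel235 chromosome II, 7585695 to 7594912, minus strand). It stood at 3.81, 2.33, 2.72 and 1.49 CPM in WT and 1.52, 1.48, 1.296 and 1.37 CPM in 3A. The 4 values in 3A were tightly grouped and lay below all WT values except that of WT replicate 4, which lay just below the highest of them. For syd-1 the log2 fold change was -0.88 ± 0.34 (adjusted p = 0.451, edgeR), with a 95% interval of -1.62 to -0.15, and -0.64 without WT replicate 1. unc-10, the RIM gene that links RAB-3 vesicles to the active zone, had 9.17, 3.37, 4.04 and 2.57 CPM in WT and 3.37, 3.59, 2.43 and 4.30 CPM in 3A. WT replicate 1 was the only library above 5 CPM, and the log2 fold change went from -0.50 ± 0.40 (adjusted p = 0.720, edgeR) to 0.020 without it.

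rpm-1 encodes a large ubiquitin ligase that limits presynaptic growth, and had 3.81, 2.54, 3.40 and 1.83 CPM in WT and 2.71, 2.46, 1.33 and 2.56 CPM in 3A. Its log2 fold change was -0.38 ± 0.34 (adjusted p = 0.760, edgeR), and -0.23 without WT replicate 1. The liprin-alpha gene syd-2, the kinase gene sad-1 and unc-2, the presynaptic voltage-gated calcium channel gene, had log2 fold changes of 0.031, -0.51 and -0.023. Without WT replicate 1 these were 0.35, 0.086 and 0.50, and 2 of the 6 active zone genes were then negative, beside 5 of 6 with all libraries. sad-1 and unc-2 had their highest 3A level in replicate 4, at 4.85 and 5.22 CPM, beside 1.26 to 1.98 and 1.33 to 2.45 CPM in the other 3A libraries. 3A replicate 4 also had the highest ribosomal RNA share, 40.7%. With ribosomal RNA genes left out of the counts, the log2 fold changes were -0.53 for sad-1 and -0.042 for unc-2. Any other part of that share in these levels was not tested.

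Among the genes that carry vesicles down the axon and recycle their membrane, unc-57 separated the groups. UNC-57 is endophilin, which bends membrane during vesicle recycling (WBGene00006791, WBcel235 chromosome I, 4675133 to 4679448, plus strand). Its level was 3.63, 1.99, 2.16 and 1.74 CPM in WT and 1.322, 1.24, 1.03 and 1.47 CPM in 3A, so the lowest WT library lay above the highest 3A library. Such separation with 3A lower was found for 2 of the 42 genes (4.76%), beside 2.36% of all genes. The other gene was unc-47, with 4, 19, 10 and 0 read pairs in 3A. It had enough reads to be tested only through its WT libraries, where it was higher, so its separation is weak evidence. For unc-57 the log2 fold change was -0.93 ± 0.34 (adjusted p = 0.428, edgeR), with a 95% interval of -1.67 to -0.19, and -0.65 without WT replicate 1.

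The endophilin partner gene unc-26 (synaptojanin, a lipid phosphatase) had 12.3, 3.45, 4.07 and 1.66 CPM in WT and 3.77, 3.20, 2.63 and 3.48 CPM in 3A. WT replicate 1 was the one high library. The log2 fold change was -0.73 ± 0.50 (adjusted p = 0.667, edgeR), and 0.058 without it. unc-104 encodes the kinesin that hauls synaptic vesicle precursors and had 3.12, 2.28, 3.85 and 2.16 CPM in WT and 1.65, 2.68, 1.40 and 2.01 CPM in 3A, with groups that overlapped and a log2 fold change of -0.56 ± 0.33 (adjusted p = 0.611, edgeR). unc-11, which encodes the clathrin adaptor AP180, was one of the 5 genes with a positive value, at 0.22 (SE 0.49) with all libraries and 0.76 without WT replicate 1.

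Neuropeptides travel in dense core vesicles, and the 4 genes listed for them had negative log2 fold changes with and without WT replicate 1. ida-1, a receptor tyrosine phosphatase-like protein of the dense core membrane, had 36.5, 16.2, 18.3 and 9.72 CPM in WT and 17.3, 15.7, 8.01 and 10.99 CPM in 3A. egl-21, the carboxypeptidase that trims peptides, had 26.9, 12.2, 9.37 and 10.4 CPM in WT and 15.3, 8.25, 7.38 and 9.98 CPM in 3A. egl-3, the proprotein convertase that cuts them, had 9.80, 4.03, 5.74 and 4.32 CPM in WT and 6.48, 4.78, 2.63 and 3.30 CPM in 3A. In all 3 genes WT replicate 1 was the highest library of all, and the remaining WT and 3A libraries overlapped. The log2 fold changes were -0.64 ± 0.40 (adjusted p = 0.635, edgeR), -0.53 ± 0.38 (adjusted p = 0.677, edgeR) and -0.48 ± 0.37 (adjusted p = 0.716, edgeR) in that order, and -0.18, -0.055 and -0.13 without WT replicate 1. unc-31, the CAPS gene needed for dense core vesicle release, had a log2 fold change of -0.079 (SE 0.44), and -0.038 without WT replicate 1.

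**Figure D3:**
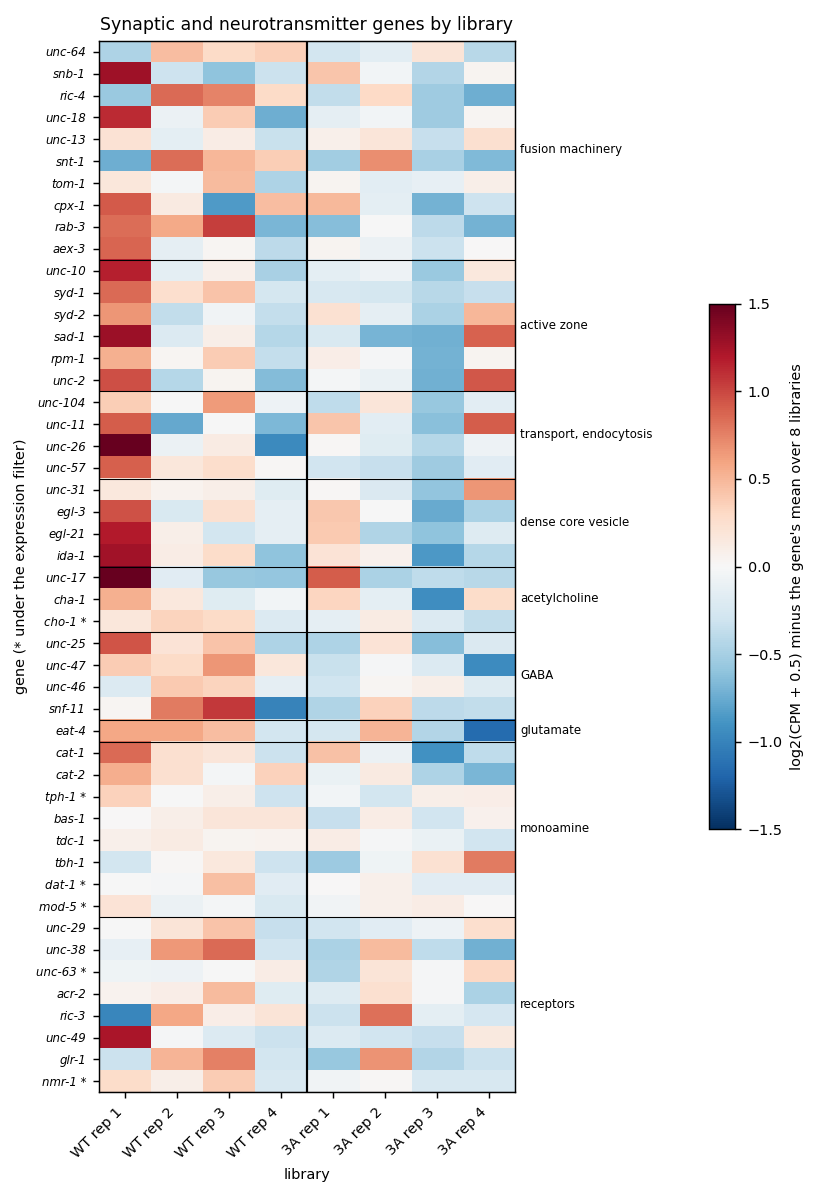
Level of each of the 48 genes (rows, by role) in each library (columns), as log2(CPM + 0.5) minus the mean of that gene over the 8 libraries; red is above and blue below the mean, and an asterisk marks the 6 genes under the expression filter. WT replicate 1 is red in most rows and blue for snt-1, ric-3, ric-4 and unc-64.

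The genes for acetylcholine synthesis and for its loading into vesicles share a locus. unc-17, the vesicular acetylcholine transporter (WBcel235 chromosome IV, 3618259 to 3624699, minus strand), and cha-1, choline acetyltransferase (WBcel235 chromosome IV, 3613931 to 3624697, minus strand), overlap in 66 bp of exon on the same strand, and how read pairs in that stretch were assigned is not given in the sources used here. unc-17 had 11.6, 2.82, 2.02 and 1.99 CPM in WT and 6.48, 2.18, 2.36 and 2.29 CPM in 3A, with 1 high library in each group, replicate 1. cha-1 had 4.82, 3.60, 2.75 and 3.07 CPM in WT and 4.10, 2.82, 1.43 and 3.94 CPM in 3A, with no library standing out as far. Per kilobase of exon, the ratio of unc-17 to cha-1 was 2.60, 0.843, 0.791 and 0.6996 in WT and 1.70, 0.832, 1.78 and 0.627 in 3A, so it was above 1 in WT replicate 1 and in 3A replicates 1 and 3 and below 1 elsewhere. The log2 fold changes were -0.49 ± 0.60 (adjusted p = 0.8294, edgeR) and -0.23 ± 0.36 (adjusted p = 0.860, edgeR), and without WT replicate 1 they were 0.53 and -0.049. cho-1, the choline transporter of cholinergic terminals, was below the expression filter at 0.3596, 0.470, 0.436 and 0.166 CPM in WT and 0.198, 0.335, 0.166 and 0.0916 CPM in 3A, from 1 to 57 read pairs a library.

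The GABA genes had the lowest median of the transmitter groups with more than 2 genes tested. UNC-47 is the transporter that loads GABA into vesicles (WBGene00006783, WBcel235 chromosome III, 10183762 to 10186260, minus strand). Its level was 0.749, 0.677, 1.02 and 0.581 CPM in WT and 0.264, 0.454, 0.332 and 0 CPM in 3A, every WT library above every 3A library. Few reads stood behind these values, with 25, 49, 134 and 7 read pairs in WT and 4, 19, 10 and 0 read pairs in 3A, and the 0 in 3A replicate 4 allows a level of up to 0.275 CPM (3 read pairs). The log2 fold change was -1.37 ± 0.55 (adjusted p = 0.471, edgeR), with a 95% interval of -2.58 to -0.17, and -1.36 without WT replicate 1.

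unc-25 encodes glutamic acid decarboxylase, which makes GABA. It had 10.3, 5.94, 7.02 and 3.57 CPM in WT and 3.57, 5.95, 3.09 and 4.30 CPM in 3A, with overlapping groups and a log2 fold change of -0.67 ± 0.35 (adjusted p = 0.578, edgeR). WT replicate 1 was the highest library, and the value was -0.38 without it. The GABA reuptake transporter gene snf-11 had 2.22, 4.07, 5.05 and 0.830 CPM in WT and 1.45, 2.89, 1.53 and 1.56 CPM in 3A, in which WT replicates 2 and 3 were highest and WT replicate 4 was the lowest of all libraries. For snf-11 the log2 fold change was -0.73 ± 0.48 (adjusted p = 0.655, edgeR). unc-46, which encodes the LAMP-like protein that sorts UNC-47 to vesicles, had a log2 fold change of -0.38 (SE 0.41), and unc-49, the GABA-gated chloride channel gene of muscle, -0.53 ± 0.37 (adjusted p = 0.678, edgeR). The median of the 5 GABA genes was -0.67 and, without WT replicate 1, -0.54.

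eat-4, the vesicular glutamate transporter gene that marks glutamatergic neurons, had 1.47, 1.46, 1.31 and 0.581 CPM in WT and 0.595, 1.36, 0.465 and 0.0916 CPM in 3A. The lowest value, in 3A replicate 4, rests on 1 read pair, and 3A replicate 2 lay among the WT libraries. The log2 fold change was -0.86 ± 0.56 (adjusted p = 0.649, edgeR). The glutamate receptor gene glr-1 had 1.199, 2.51, 3.07 and 1.25 CPM in WT and 0.925, 2.87, 1.06 and 1.19 CPM in 3A and a log2 fold change of -0.40 (SE 0.46). nmr-1, an NMDA receptor subunit gene, was too sparse to test, with 7, 9, 35 and 0 read pairs in WT and 1, 4, 0 and 0 read pairs in 3A.

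The monoamine genes, which serve few neurons each, showed 2 kinds of behaviour. tdc-1 (tyrosine decarboxylase, for tyramine and octopamine) and bas-1 (the decarboxylase shared by dopamine and serotonin) were the steadiest of the 48 genes in WT, with coefficients of variation of 0.0261 and 0.0641, beside a median of 0.414 over the 42 genes tested. bas-1 had 3.78, 4.03, 4.33 and 4.32 CPM in WT and 2.84, 4.11, 2.99 and 3.94 CPM in 3A and tdc-1 had 3.90, 4.03, 3.82 and 3.82 CPM in WT and 4.03, 3.63, 3.39 and 2.93 CPM in 3A. The log2 fold changes were -0.24 ± 0.26 (adjusted p = 0.802, edgeR) and -0.15 ± 0.25 (adjusted p = 0.872, edgeR), with 95% intervals of -0.81 to 0.32 and -0.70 to 0.39. WT replicate 1 did not stand out in either gene.

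cat-2, the tyrosine hydroxylase gene of dopamine neurons, had 1.318, 0.967, 0.719 and 1.08 CPM in WT and 0.661, 0.861, 0.399 and 0.275 CPM in 3A. The WT libraries lay above the 3A libraries except where 3A replicate 2 passed WT replicate 3. That gave a log2 fold change of -0.82 ± 0.43 (adjusted p = 0.584, edgeR). cat-1, the vesicular monoamine transporter gene, had 1.74, 0.967, 0.910 and 0.498 CPM in WT and 1.19, 0.669, 0.166 and 0.458 CPM in 3A and a log2 fold change of -0.78 ± 0.56 (adjusted p = 0.682, edgeR), or -0.45 without WT replicate 1. tbh-1, whose product turns tyramine into octopamine, had the highest value of the 42 genes, at 0.45 (SE 0.62) with all libraries and 0.27 without WT replicate 1, on 1 to 55 read pairs a library. The tryptophan hydroxylase gene tph-1, the serotonin transporter gene mod-5 and the dopamine transporter gene dat-1 were below the filter, with 84, 31 and 46 read pairs over all 8 libraries. The median of the 5 monoamine genes tested was -0.24, and -0.27 without WT replicate 1.

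Acetylcholine receptors at the neuromuscular junction are assembled from several subunits with the help of the chaperone RIC-3. The subunit gene unc-38 had 0.809, 1.74, 2.07 and 0.664 CPM in WT and 0.529, 1.48, 0.598 and 0.366 CPM in 3A, high in WT replicates 2 and 3 and 3A replicate 2. Its log2 fold change was -0.79 ± 0.51 (adjusted p = 0.649, edgeR). acr-2, a subunit gene of motor neuron receptors, had 0.479, 0.511, 0.810 and 0.332 CPM in WT and 0.330, 0.622, 0.432 and 0.183 CPM in 3A and a log2 fold change of -0.41 ± 0.46 (adjusted p = 0.814, edgeR). unc-29 had -0.28 (SE 0.37), and unc-63, with 94 read pairs in all, was not tested. ric-3 itself was far more abundant, at 22.9, 68.1, 48.7 and 52.1 CPM in WT and 36.2, 81.4, 41.1 and 38.2 CPM in 3A, and its log2 fold change was 0.039 (95% interval -0.77 to 0.85). unc-49 had 15.3, 6.19, 5.34 and 4.90 CPM in WT and 5.35, 5.02, 4.82 and 6.96 CPM in 3A, a single high library in WT, and its log2 fold change turned from -0.53 to 0.013 without that library. The median of the 6 acetylcholine genes tested was -0.34 with all libraries and -0.34 over 7 genes without WT replicate 1. The gene added in that fit was cho-1, at -0.83, so these medians are not over the same genes.

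Set side by side, the transmitter groups and the shared genes differed in how far they rested on WT replicate 1. The 24 shared genes had a median of -0.49 with 21 negative, and -0.10 with 15 negative without that library. The median of the 2 glutamate genes tested was -0.63 and -0.66. These are descriptions of small groups, and the differences between them were not tested. By position, the 9 genes on the X chromosome had a median of -0.41, and 0.073 without WT replicate 1. The 33 tested on autosomes had -0.49 and, in that fit, -0.31. All 1853 X-linked genes tested had -0.24 and -0.10.

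The genes did not share one order of libraries. In WT, 25 of the 42 tested were highest in replicate 1, or 59.5%, beside 36.2% of all genes. Against the mean of the other WT libraries, replicate 1 was 5.11 times as high for unc-17, 4.00 for unc-26, 3.22 for snb-1 and 3.14 for sad-1. It was 0.375 times as high for snt-1, 0.407 for ric-3, 0.425 for ric-4 and 0.526 for glr-1. All 4 genes just named also had their highest 3A level in replicate 2. WT replicate 4 was the lowest WT library for 26 of 42 (61.9%, beside 24.3% of all genes), and 3A replicate 3 the lowest 3A library for 23 of 42 (54.8%, beside 22.99%). The mean log2(CPM + 0.5) over the 48 genes was 2.14, 1.80, 1.90 and 1.44 in WT and 1.59, 1.69, 1.29 and 1.56 in 3A.

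Related neuronal genes were examined for context. Of 52 other transmitter genes tested (receptors, transporters, enzymes and receptor assembly factors), 46 had a negative log2 fold change, with a median of -0.32, and -0.31 without WT replicate 1. None was called. An unadjusted p-value under 0.05 was found for 9.75% of all genes, and for 4.03% with a lower value in 3A. Here 2 (3.85%) had such a p-value, both lower in value in 3A. These were gab-1, a GABA receptor subunit gene, from 1.55 CPM in WT and 0.762 CPM in 3A, a log2 fold change of -0.97, and oig-4, which helps to anchor acetylcholine receptors, from 2.95 CPM in WT and 1.48 CPM in 3A, a log2 fold change of -0.98. Of 39 other synaptic genes, 28 were negative, with a median of -0.20, and 0.056 without WT replicate 1. None was called. The 2 (5.13%) with an unadjusted p-value under 0.05, beside 9.75% of all genes, were higher in value in 3A. They were hid-1 (log2 fold change 0.72), which acts in dense core vesicle formation, and the endocytic scaffold gene itsn-1 (0.75).

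Of 31 neuron identity factors tested, 28 were negative, with a median of -0.36, and -0.077 without WT replicate 1. None was called, and 1 (3.23%) had an unadjusted p-value under 0.05, beside 9.75% of all genes. That was unc-42, a homeobox gene of command interneurons (log2 fold change -0.65). The 13 panneuronal markers tested, 7 of them negative, had a median of -0.054. Without WT replicate 1 it was 0.13, with 6 of 14 negative. With all libraries the log2 fold changes of these markers ran from -0.67 for exc-7 to 0.71 for tba-1. The tubulin gene tba-1 stood at 561 to 2575 CPM, far above unc-44, the next most abundant marker, at 128 to 274 CPM. Whether its reads came from neurons cannot be told in whole embryos. The next highest log2 fold change was 0.20, for ric-19. The marker closest to 0 was unc-119, expressed in most or all neurons. It had 15.8 CPM in WT and 15.9 CPM in 3A and a log2 fold change of 0.0043.

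Markers of the other tissues moved with WT replicate 1 too. The mean log2(CPM + 0.5) of 23 muscle genes was 6.78, 5.47, 5.49 and 5.45 in WT and 6.17, 5.47, 5.06 and 5.83 in 3A. Their summed level was 3401 to 9300 CPM in WT and 3320 to 6191 CPM in 3A, the highest WT value being that of replicate 1. Median log2 fold changes with all libraries were -0.36 for muscle, -0.058 for epidermis, -0.45 for pharynx and -0.29 for intestine. Without WT replicate 1 they were 0.15, 0.49, 0.20 and 0.055, all positive, where that of the synaptic and transmitter genes was -0.18. Of the 33 early embryo genes tested, 30 had a positive log2 fold change, with a median of 0.61, and 0.85 without WT replicate 1. None was called, and 7 (21.2%) had an unadjusted p-value under 0.05, beside 9.75% of all genes. The whole list of 36 had a mean log2(CPM + 0.5) of 1.54, 0.83, 1.19 and 1.11 in WT and 1.46, 1.16, 1.87 and 2.004 in 3A. The part of embryo age or tissue make-up in the levels of the synaptic genes was not tested.

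**Figure D4:**
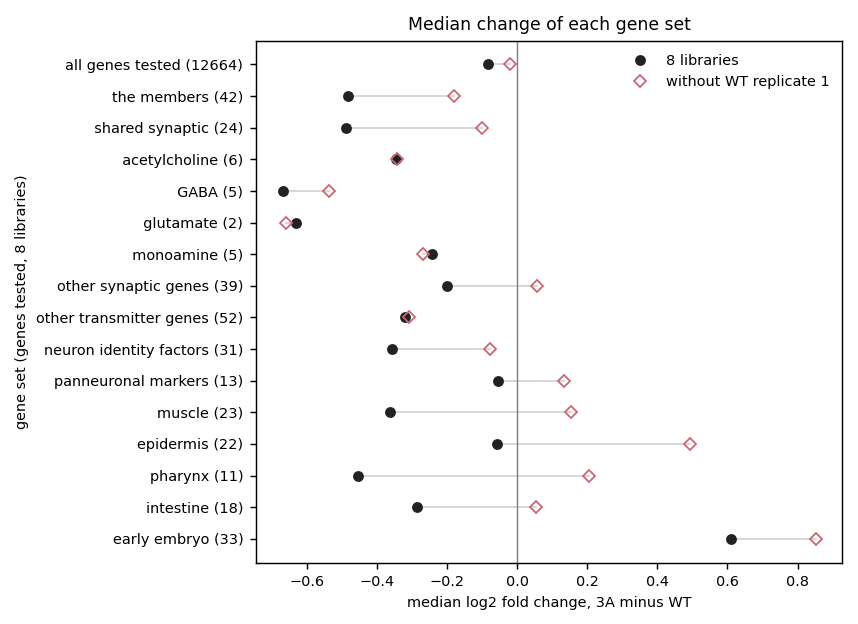
Median log2 fold change (horizontal axis, 3A minus WT) of the synaptic and transmitter genes ("the members"), their transmitter groups, and the other gene lists (rows, with the number of genes tested in 8 libraries); filled points use 8 libraries and open diamonds leave out WT replicate 1. Glutamate and monoamine genes keep their place. So do acetylcholine and other transmitter genes, whose diamonds are over 7 and 59 genes. GABA, shared synaptic, other synaptic, neuron identity and panneuronal genes move to the right, as do the muscle, epidermis, pharynx, intestine and early embryo lists.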

How the data were processed

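RNA from whole late embryos of lin-52(WT) and lin-52(3A), 4 libraries each, was sequenced as paired 150-bp reads after poly(A) selection with a directional kit, per the labels' protocols. The deposited files hold whole-number counts per gene made by the authors with fastp, STAR and HTSeq on WBcel235, per the submitters' processing notes, which also name DESeq2. The file labels mark the counting as stranded; versions and the counting mode for overlaps are not given in the sources used here. HTSeq's summary lines were left out of library sizes and tests, and reads with no feature took 0.660% to 0.985%, ambiguous reads 0.404% to 0.925% and multiply aligned reads 1.82% to 14.4% of the counted total.

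The 48 genes were matched by symbol in Ensembl release 115 of WBcel235, which also gave exon lengths and coordinates. Genes were filtered with filterByExpr (minimum count 10), scaled by TMM and tested with the quasi-likelihood F-test of edgeR 4.0.16 in R 4.3.3, without a block, with Benjamini-Hochberg adjustment over 12664 genes. DESeq2 1.42.0 was an alternative, beside other scalings, no filter, a replicate block and leaving out each library. Standard errors (SE) were derived from the F statistic, as the absolute log2 fold change over its root. No pair of libraries in a group agreed within sampling noise (lowest chi-square per degree of freedom 55.6). In counts simulated for 12664 genes with 200 changed by 2 on the log2 scale, the test recovered 77% and called 5 unchanged genes. Floors of 3 read pairs cover counting error only. Full values are given for the 3 genes with the smallest p-value in each of 9 roles, or for all genes in roles of 3 or fewer. The genes and lists were chosen with earlier results of these data known.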

Additional observations from a re-analysis of the deposited data

Results flagged for a closer look

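In 9 of 86 groups of 4 libraries, 1 library lay apart from the rest. The rule was Dixon's 95% critical value for the gap over the range of a group. Chance gives about 1 in 20 for independent, normally distributed values. Levels of genes were taken as CPM without a log, and the genes share the same 8 libraries. The count therefore cannot be set against that rate. In WT the high library was replicate 1 in all 4 cases, at 224 CPM for snb-1, 26.9 CPM for egl-21, 11.6 CPM for unc-17 and 15.3 CPM for unc-49. In 3A it was replicate 2 for snt-1 at 11.6 CPM, snf-11 at 2.89 CPM, ric-3 at 81.4 CPM and glr-1 at 2.87 CPM. The remaining case was unc-17 in 3A replicate 1, at 6.48 CPM.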

How the results depend on the processing

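No synaptic or transmitter gene was called in any of the settings run (DESeq2 gave no adjusted p for unc-17), and the smallest adjusted p-value was 0.0921. The count of all genes called was 47, and it was 10 with library size alone, 71 without the filter, 165 with DESeq2, 175 with the replicate block, 118 without WT replicate 1 and 3A replicate 4 (a setting chosen after seeing the data) and 18 to 196 with 1 library left out. Genes called higher in 3A numbered 45, then 9 (library size), 146 (DESeq2), 155 (block), 93 (both left out) and 17 to 143 (1 left out). Genes called lower numbered 2, then 1 (library size), 4 (no filter), 19 (DESeq2), 20 (block), 25 (both left out) and 0 to 53 (1 left out). The cause was not tested.

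An unadjusted p-value under 0.05 was found for 2 synaptic and transmitter genes with library size alone and 1 to 10 with 1 library left out, beside 4. Their median log2 fold change was -0.75 with library size alone and -0.60 to -0.18 with 1 library left out. Relative to the median of all genes it was -0.49 to -0.16 with 1 library left out, beside -0.40.

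Signs of 27 of the 42 genes held in every setting. With library size alone the log2 fold change became -0.28 for unc-13, -0.31 for syd-2, -0.15 for unc-11, -0.051 for tbh-1 and -0.21 for ric-3. With both libraries left out it became 0.44 for snb-1, 0.039 for aex-3, 0.048 for unc-2, 0.022 for unc-26, 0.66 for unc-17, -0.19 for tbh-1 and -0.079 for ric-3. With 1 library left out the range crossed 0, at -0.40 to 0.45 for snb-1, -0.45 to 0.073 for aex-3, -0.69 to 0.020 for unc-10, -1.11 to 0.086 for sad-1, -0.47 to 0.50 for unc-2, -1.01 to 0.058 for unc-26, -1.03 to 0.53 for unc-17, -0.31 to 0.26 for ric-3, -0.69 to 0.013 for unc-49, -0.15 to 0.35 for syd-2, -0.12 to 0.76 for unc-11, -0.32 to 0.031 for tom-1, -0.011 to 0.19 for unc-13, -0.49 to 0.17 for unc-31 and -0.014 to 0.80 for tbh-1.

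Replicate numbers are shared by the groups in the labels. Deviations of same-numbered libraries correlated at 0.57, 0.60, 0.18 and 0.0085, and only the libraries numbered 1 correlated best with their own number, a hint from the data and not the design. With the replicate block the median of the synaptic and transmitter genes was -0.38, with 6 under 0.05 before adjustment and 0 called. Depth limits the rarest genes, for which 3 read pairs correspond to 0.0229 CPM in WT replicate 3 and 0.275 CPM in 3A replicate 4.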

Other observations

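The ratio of snb-1 to ric-4, SNARE genes of the vesicle and of the plasma membrane, was examined after their values were seen. Per kilobase of exon it was 29.8, 3.67, 3.19 and 5.37 in WT and 14.3, 6.56, 8.91 and 14.3 in 3A. The ratio was highest in WT replicate 1, and in the other WT libraries it lay below all 3A values. Leaving out WT replicate 1, the log2 fold change was 0.45 for snb-1 and -0.93 for ric-4. The difference between the genes was not tested.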
